A study of Mus musculus with 4 samples.

Results

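The comparison here was by the presence of a mutation in Matn3, the gene for the cartilage matrix protein matrilin-3. The 2 arrays with the mutation were set against the 2 arrays without it, and these are all 4 arrays of the series. Members were chosen by their titles alone, and each mutant array was paired with the unmutated array of the same Xbp1 genotype. The Matn3 mutant array carried RNA of mice homozygous for the V194D change in Matn3 with Xbp1 intact. The double mutant array carried RNA of mice with the same Matn3 change in which exon 2 of Xbp1 had also been deleted by a Cre recombinase under the Col2a1 promoter, which is active in chondrocytes. Their references were the wild type array, with neither change, and the XBP1 null array, with the Xbp1 deletion alone. All mice were C57BL6/J and 5 days old. Rib chondrocytes were freed by collagenase digestion from pooled litters, and each array held RNA pooled from 3 extractions, so that there was 1 array per genotype and no spread between animals to measure.

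Matrilin-3 is an adaptor protein that links collagen fibrils and proteoglycans, and V194D lies in its von Willebrand factor A domain. Mutant matrilin-3 folds poorly, is retained in the endoplasmic reticulum (ER) of chondrocytes and causes a form of multiple epiphyseal dysplasia. Unfolded protein in the ER activates the sensors IRE1, PERK and ATF6. IRE1 splices the Xbp1 transcript into one that encodes an active transcription factor, ATF6 is cleaved into another, and PERK slows translation and favours that of ATF4. The question the pairing addresses is which transcripts differ with the Matn3 mutation whether or not chondrocytes have XBP1.

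On the Affymetrix Mouse430_2 array each transcript is read by 1 or more probe sets, and the signal is a linear intensity with no unit. Of 45037 probe sets, 34945 named a single gene, which gave 18193 genes, each represented by its brightest probe set. Values under 1 were set to 1, and a difference is the log2 signal of a mutant array minus that of its unmutated partner. The mean difference is the average over both Xbp1 backgrounds, which share no array. Depth in the sense of read counts does not exist for arrays, and the number of arrays limits the precision. A comparison of 2 arrays with 2 cannot reach an exact two-sided permutation p below 0.333. The median signal lay between 43.79 and 43.84 on the 4 arrays, and between 8.36% and 10.9% of probe sets lay under 1. The 2 mutant arrays correlated at r = 0.974 over log2 signals, and all other pairs of arrays at 0.956 to 0.962.

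Several markers of sex and of other cells moved with the arrays and stand before the results for that reason. The 3 measured Y-linked genes (Eif2s3y, Uty and Kdm5d) summed to 2.58 in the Matn3 mutant pool, against 770 in wild type, and to 1448 in the double mutant, against 1110 in XBP1 null. The female-linked transcript Xist was bright in every pool, with 9718 and 4101 in the mutant arrays and 7393 and 5262 in the wild type and XBP1 null arrays. The sexes of the pooled mice are not given. On the XBP1 intact background Y-linked signal differed along with the Matn3 genotype, so that sex and mutation cannot be told apart there. The 13 endothelial markers summed to 828 in the Matn3 mutant, against 168 in wild type, and to 1439 in the double mutant, against 5846 in XBP1 null. Of 9 measured epidermal markers, 6 summed to 449.9 and 475 in the Matn3 mutant and double mutant, and to 602 and 634 in the wild type and XBP1 null arrays. The other 3 (Lce1d, Klk8 and Krt13), which were put on that list because of earlier results of these data, summed to 262 and 31.5, against 1324 and 1874. Chondrocyte genes were bright throughout, with Col2a1, the main collagen of cartilage, at 13380 and 13571 in the mutant arrays and 10187 and 13435 in the unmutated arrays. In RNA of mixed cells, fewer cells of a type and less RNA per cell cannot be told apart.

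**Figure D1:**
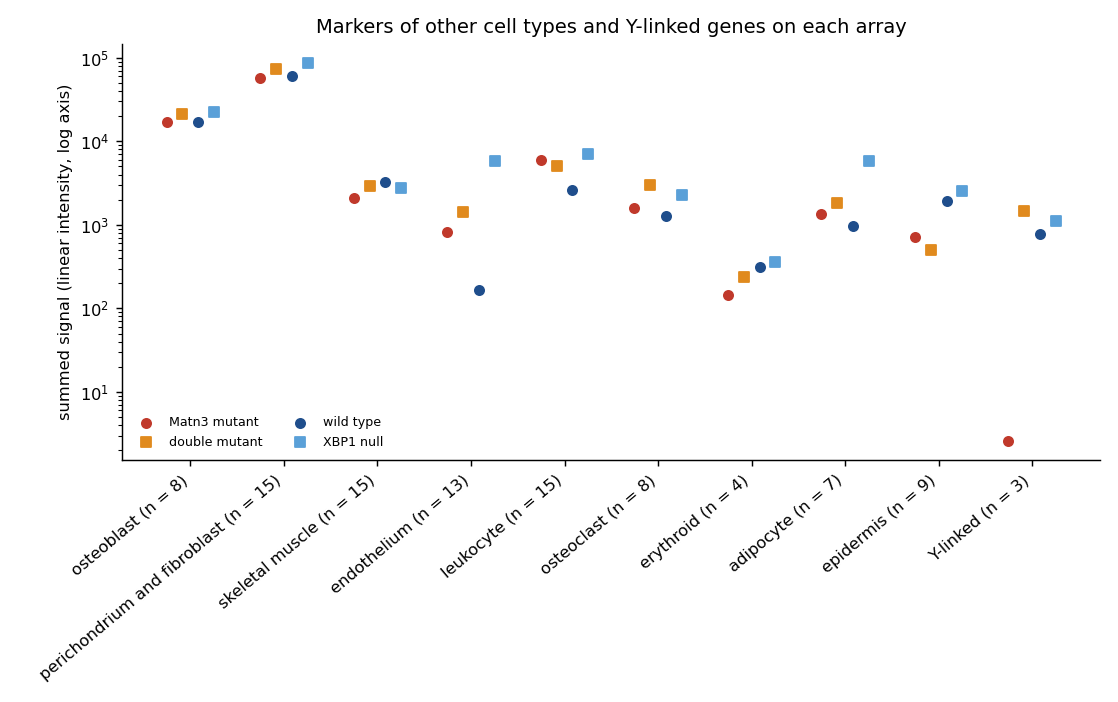
Summed signal (linear intensity, log axis) of the markers of 9 other cell types and of 3 Y-linked genes on each of the 4 arrays, with the number of genes summed beside each name. Endothelial signal was lowest in wild type (168) and highest in XBP1 null (5846), and Y-linked signal was at 2.58 in the Matn3 mutant, against 770 to 1448 on the other arrays.

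Neither engineered allele could be checked from the signals, because a point change need not alter the amount of transcript and the probe sets of such arrays lie toward the 3' end, outside an early exon. Matn3 itself had a signal of 10462 in the Matn3 mutant and 10572 in the double mutant, against 10185 in wild type and 9945 in XBP1 null. The mutant arrays were 1.03-fold and 1.06-fold higher, with a mean log2 difference of 0.06, and a second Matn3 probe set had 2979 and 3119 against 2578 and 2337. The brightest of 4 Xbp1 probe sets read 11403 and 9548 in the mutant arrays, against 8183 in wild type and 7877 in XBP1 null. Its mean log2 difference was 0.38, and the other 3 probe sets of Xbp1 also gave higher signals in both mutant arrays, by 0.54 to 1.63 on the log2 scale. The transcript left after the deletion of exon 2 is still read by these probe sets, so the values say nothing about XBP1 protein.

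Across all genes, 1363 (7.49%) were over 1.5-fold higher on both backgrounds, 996 (5.47%) were over 1.5-fold lower on both, and 1228 (6.75%) went opposite ways by over 1.5-fold each. Most of these were dim. Among the 9097 genes at or above the median signal of genes (112), 100 (1.1%) were higher on both backgrounds, 171 (1.88%) lower and 257 (2.83%) opposite. The 2 differences correlated at r = 0.21 across all genes, at r = 0.28 in the 4549 dimmest genes and at r = 0.03 in the 4548 brightest, as a description across genes, which are not independent replicates. In the brightest genes the median size of a difference was 0.32 with XBP1 intact and 0.19 without XBP1. A limma fit with Xbp1 and Matn3 genotype as terms left 1 residual degree of freedom and called 0 of 45037 probe sets at an adjusted p under 0.05, with 3381 (7.51%) at an unadjusted p under 0.05. The smallest adjusted p was 0.635. Fitted to the brighter 22519 of the probe sets (median signal and up), limma called 4 higher (0.0178%) and 9 lower (0.04%), and for 7 of the 13 the probe set was the brightest of its gene. For 5 of the 13, among them Derl3, Lce1d and Adi1, both arrays of the dimmer pair lay under the median signal (41.6), so that the probe set entered that fit only through the arrays where it was bright, and its adjusted p is not used as support. Calls below come from that fit and are named as such. Their SE and p rest on how far the 2 backgrounds disagree and on variances shared across probe sets. They measure no spread between animals or pools of 1 genotype. All other differences are descriptions of 4 arrays.

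**Figure D2:**
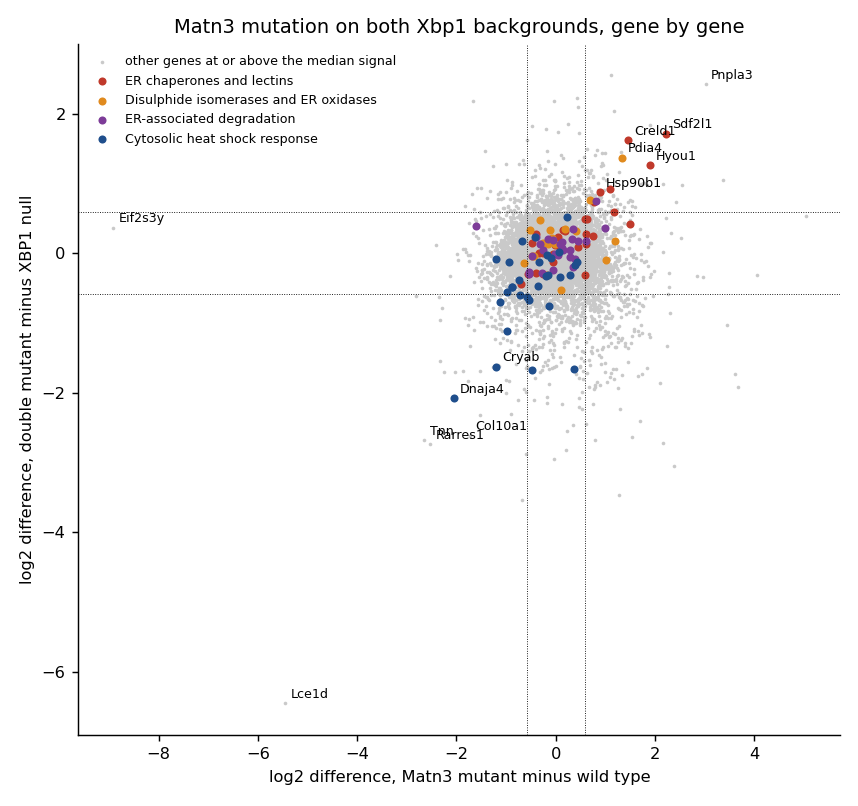
Log2 difference of double mutant minus XBP1 null (vertical axis) against Matn3 mutant minus wild type (horizontal axis) for each gene at or above the median signal, with dotted lines at 1.5-fold. By the medians of the whole lists, ER chaperones and lectins lie toward the upper right (0.45 horizontal, 0.25 vertical). Cytosolic heat shock genes lie toward the lower left (-0.45 and -0.37). The medians of disulphide isomerases and ER oxidases (-0.02 and 0.17) and of ER-associated degradation (0.11 and 0.10) are nearer the centre. Over all 9097 genes at or above the median signal, list members included, the 2 differences correlated at r = 0.02. The far left point is the Y-linked Eif2s3y.

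Genes of the ER protein folding machinery held more members over 1.5-fold higher on both backgrounds than any other of the 22 pathway lists. Of 31 measured ER chaperones and lectins, 8 were over 1.5-fold higher on both backgrounds and 0 were lower on both, beside 7.49% and 5.47% of all genes and 1.1% and 1.88% of genes at or above the median signal. The median mean difference of the list was 0.26, with 0.45 on the XBP1 intact background and 0.25 on the XBP1 null background, beside 0.00 for all genes. Both mutant arrays lay above both unmutated arrays for 16 of the 31 (background 20.2%) and below them for 6 (background 21.8%). The list, like all others, was chosen with earlier results of these data known, and its count is therefore not independent evidence of a direction.

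Promoters of several of these genes hold the ER stress response element, the motif at which ATF6 and XBP1 are known to act together with the factor NF-Y. It was searched for as CCAAT and CCACG with 9 bases of any kind between them, on both strands, of the 300 bases around each start (250 before and 50 after), in 32851 RefSeq promoters of build GRCm38.p6, and was found in 39 (0.119%). The stretches around it are shown for 6 genes whose signals are described next, in the direction of the gene, with the element in capitals (in Derl3, Calr, Creld2 and the second Hsp90b1 site as its reverse complement).
Derl3, chr10:75893217-75893285 (+ strand): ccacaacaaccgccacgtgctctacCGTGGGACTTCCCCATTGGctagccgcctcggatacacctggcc
Hsp90b1 first site, chr10:86705613-86705681 (- strand): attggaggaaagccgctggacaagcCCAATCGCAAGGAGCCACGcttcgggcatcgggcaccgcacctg
Hsp90b1 second site, chr10:86705508-86705576 (- strand): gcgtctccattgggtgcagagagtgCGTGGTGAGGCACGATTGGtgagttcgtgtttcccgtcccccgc
Calr, chr8:84847050-84847118 (- strand): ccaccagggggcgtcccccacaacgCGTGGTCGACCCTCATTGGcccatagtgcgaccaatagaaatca
Pdia6, chr12:17266466-17266534 (+ strand): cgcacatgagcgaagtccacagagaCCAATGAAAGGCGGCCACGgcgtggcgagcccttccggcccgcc
Hspa5, chr2:34772000-34772068 (+ strand): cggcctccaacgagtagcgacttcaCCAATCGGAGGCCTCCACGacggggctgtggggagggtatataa
Creld2, chr15:88819495-88819563 (+ strand): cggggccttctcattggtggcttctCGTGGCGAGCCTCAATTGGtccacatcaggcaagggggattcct

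The 39 promoters belong to 37 genes, of which 20 were measured. Their median mean difference was 0.47, with 0.68 with XBP1 intact and 0.36 without XBP1. Derl3, Hsp90b1, Calr, Pdia6, Adcy3 and Zfp57, 6 of the 20 (30%, background 7.49%), were over 1.5-fold higher on both backgrounds, 0 were lower on both (background 5.47%), and Acacb went opposite ways. Zfp57 was dim, with signals of 0.540 to 6.59. Both mutant arrays were above both unmutated arrays for 10 (background 20.2%) and below them for 0 (background 21.8%). Of the 20 genes, 10 also stand in one of the 4 ER lists used here, so the motif and the lists are not separate views. A match is a description of these letters and not of a bound factor.

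**Figure D3:**
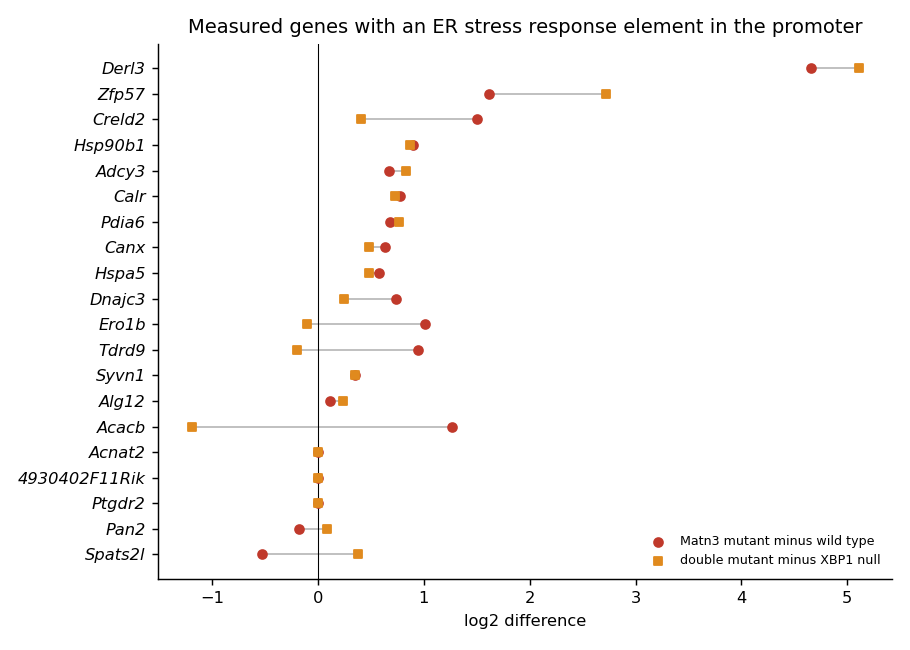
Log2 differences of the 20 measured genes with an ER stress response element in the promoter, Matn3 mutant minus wild type (circles) and double mutant minus XBP1 null (squares), ordered by their mean. Derl3 is farthest to the right on both backgrounds (4.66 and 5.11), Creld2 has unlike differences (2.84-fold and 1.33-fold), and Acacb points opposite ways.

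Derl3, a derlin of the channel through which misfolded proteins leave the ER for degradation, had the most extreme difference of the ER genes. Its signal was 472 in the Matn3 mutant and 356 in the double mutant, against 18.7 in wild type and 10.3 in XBP1 null. The groups were far apart, with a mean log2 difference of 4.88. Both unmutated signals were under the median signal that decided which probe sets were fitted as the brighter ones, and limma on all probe sets gave an adjusted p of 0.635. Hsp90b1, the HSP90 of the ER also known as GRP94, read 14935 and 15659 in the mutant arrays, against 8027 and 8555 in wild type and XBP1 null. It was called higher by limma on the brighter probe sets, at 0.88 ± 0.10 (SE, adjusted p = 0.0436), and a second, dimmer probe set gave 11566 and 11008 against 6234 and 5302.

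Several of the higher genes in the chaperone list work with BiP, the ER HSP70. Sdf2l1, a stabiliser of J proteins in the ER, had 2608 and 1600 in the Matn3 mutant and double mutant, against 557 and 489 in wild type and XBP1 null. Its differences were 2.23 and 1.71, and limma on the brighter probe sets gave it an adjusted p of 0.0735. Hyou1, an ER member of the HSP110 family that exchanges the nucleotide of BiP, had 1022 and 615, against 273 and 257. Hspa5, the gene for BiP itself, was among the brightest transcripts on the array, with 20030 and 19811 in the mutant arrays and 13371 and 14150 in the unmutated arrays. Its differences of 0.58 and 0.49 fell just short of 1.5-fold, although the groups did not overlap.

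Lectin chaperones hold glycoproteins in the ER until they fold. Calr, calreticulin, had 11684 and 11675 in the Matn3 mutant and double mutant, against 6835 and 7032 in wild type and XBP1 null. Canx, calnexin, had 9180 and 8340, against 5921 and 5966. Both mutant arrays were higher for each gene, and the 2 backgrounds gave almost the same size of difference (0.77 and 0.73 for Calr, 0.63 and 0.48 for Canx). Calr3, Uggt2, Dnajc1, Dnajc10, Fkbp11 and Nucb1 were the 6 members of the chaperone list that lay below both unmutated arrays instead, with Nucb1 at 1994 and 1837 against 3249 and 2504.

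Secreted and luminal stress proteins made up the rest of the higher group. Manf, a small protein released under ER stress, had 10927 and 10462 in the mutant arrays, against 5125 in wild type and 5548 in XBP1 null. Creld1 had 255 and 382, against 92.3 and 125, with differences of 1.46 and 1.61. Its paralogue Creld2 had 4667 in the Matn3 mutant and 2009 in the double mutant, against 1645 in wild type and 1509 in XBP1 null. Creld2 was thus 2.84-fold higher with XBP1 intact and 1.33-fold higher without XBP1, and that difference between the backgrounds was not tested. Nucb2, a calcium-binding protein, and Clgn, a calnexin-like chaperone, were also over 1.5-fold higher on both backgrounds, Clgn from signals of at most 6.16.

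Among 21 disulphide isomerases and ER oxidases, 2 were over 1.5-fold higher on both backgrounds (background 7.49%) and 0 lower (background 5.47%). The median mean difference was 0.07. Pdia4, an isomerase that forms and reshuffles disulphide bonds, had 3509 and 3232 in the Matn3 mutant and double mutant, against 1390 and 1252 in wild type and XBP1 null. Its 2 differences were 1.34 and 1.37. Pdia6 had 8646 and 8081, against 5382 and 4754, and P4hb, the founding member of the family, had 15774 and 15618, against 11922 and 12532. Erp44 was lower in both mutant arrays, with 2112 and 1831 against 2397 and 2284.

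Of 28 genes of ER-associated degradation, 2 (Derl3 and Sel1l) were over 1.5-fold higher on both backgrounds (background 7.49%) and 0 lower (background 5.47%). Among genes at or above the median signal those shares were 1.1% and 1.88%. Both mutant arrays lay above both unmutated arrays for 9 of the 28 (background 20.2%) and below them for 3 (background 21.8%). The median mean difference was 0.09. Sel1l, the adaptor of the ubiquitin ligase that serves the derlin channel, had 1587 and 1922 in the mutant arrays, against 900 and 1141. Syvn1, that ligase, had 1952 and 1612, against 1530 and 1265, a difference of 0.35 on each background. Vcp, the ATPase that pulls substrates out of the membrane, had 4693 and 5121, against 4764 and 5156, and its groups overlapped. For translocation and ER-Golgi transport, 0 of 51 genes passed 1.5-fold on both backgrounds in either direction (background 7.49% higher and 5.47% lower), with a median of 0.09. By smaller differences the list leaned to the higher side. Both mutant arrays lay above both unmutated arrays for 23 of the 51 (background 20.2%) and below them for 4 (background 21.8%). In that list Surf4, a cargo receptor, had 2744 and 3093 against 2040 and 2287, and Sec23a, a coat protein of vesicles leaving the ER, had 4488 and 5039 against 3268 and 2890.

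**Figure D4:**
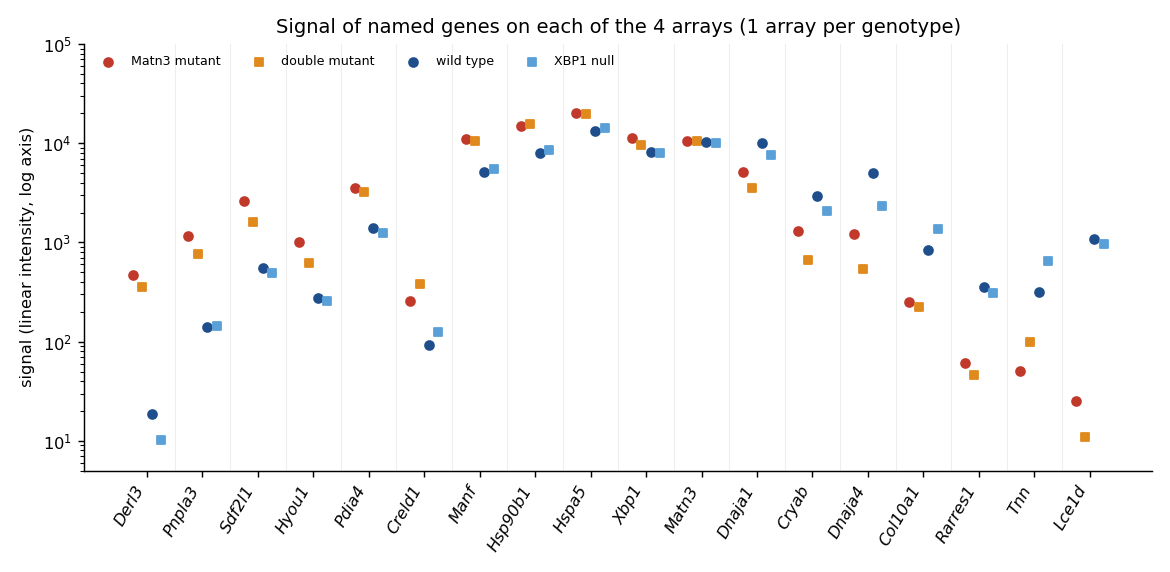
Signal (linear intensity, log axis) of 18 genes on the Matn3 mutant, double mutant, wild type and XBP1 null arrays, with 1 point per array. From Derl3 to Xbp1 both mutant arrays lie above both unmutated arrays, Matn3 is level (9945 to 10572), and from Dnaja1 to Lce1d both mutant arrays lie below.

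The transcription factors and sensors of the unfolded protein response leaned to the higher side, mostly by less than 1.5-fold. Of 16 measured, 1 (Atf5) was over 1.5-fold higher on both backgrounds (background 7.49%) and 0 lower (background 5.47%), and the median mean difference was 0.27. Both mutant arrays lay above both unmutated arrays for 8 of the 16 (background 20.2%) and below them for 1 (background 21.8%). Atf5, a factor whose translation rises under stress, had 1533 and 1819 in the Matn3 mutant and double mutant, against 448 in wild type and 903 in XBP1 null. Atf4 had 12786 and 13478, against 10502 and 12128. Eif2ak3, the gene for PERK, had 1459 and 1535, against 1190 and 1234, a difference of 0.29 and 0.32. Ern1, the gene for IRE1, had 972 and 754, against 465 and 922, and Atf6 had 439 and 405, against 187 and 509. For Ern1 and Atf6 the Matn3 mutant was above wild type and the double mutant was below XBP1 null. Ddit3, which encodes the death-associated factor CHOP, had 7053 and 9927, against 7047 and 6726, so that it stood apart in the double mutant.

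Targets of the PERK and ATF4 branch gave unlike counts on the 2 backgrounds. On the XBP1 intact background 22 of 29 exceeded their wild type signal by more than 1.5-fold (background 21.2%) and 0 fell short of it by as much, with a median of 0.88. On the XBP1 null background 5 of 29 were over 1.5-fold higher in the double mutant (background 16.6%) and 1 lower, with a median of 0.18. On both backgrounds 5 were over 1.5-fold higher (background 7.49%) and 0 lower (background 5.47%). Both mutant arrays lay above both unmutated arrays for 16 of the 29 (background 20.2%) and below them for 0 (background 21.8%). The wild type array was the lowest of the 4 for 24 of the 29 genes, beside 32.6% of all genes. By summed signal the other 3 arrays were close to each other, though not for every gene. The sums were 85255 in the Matn3 mutant, 88489 in the double mutant and 81510 in XBP1 null, against 57983 in wild type. Asns, asparagine synthetase, shows the pattern with 5942 and 5793 in the mutant arrays, against 3221 in wild type and 5627 in XBP1 null. Trib3, a feedback inhibitor, had 2437 and 2793, against 1099 and 2341. Whether these differences differ between the backgrounds was not tested.

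Members of this branch that were higher on both backgrounds were Sesn2, Nupr1, Cbs, Gpt2 and Slc6a9. Nupr1, a small stress-induced nuclear protein, had 8153 and 9381 in the Matn3 mutant and double mutant, against 4865 and 5677 in wild type and XBP1 null, and its differences of 0.74 and 0.72 were nearly equal. Its promoter holds the 8-letter element TTGCATCA, at which ATF4 pairs with a C/EBP factor, shown here with the element in capitals.
Nupr1, chr7:126625548-126625605 (- strand), GRCm38.p6: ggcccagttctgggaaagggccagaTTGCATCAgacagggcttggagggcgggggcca
That element is common, since 294 of 32851 promoters (0.895%) hold it on either strand. Over the 116 measured genes with it the median mean difference was 0.10. Of these, 14 (12.1%, background 7.49%) were over 1.5-fold higher on both backgrounds and 11 (9.48%, background 5.47%) lower. Slc6a9, a glycine transporter, had 427 and 477, against 120 and 242. Gpt2, an alanine aminotransferase, had 1138 and 1347, against 525 and 848. Chac1 and Ppp1r15a, known effectors of the same branch, did not follow, with Chac1 at 4384 and 6143 against 5998 and 4959 and Ppp1r15a at 4475 and 5629 against 5387 and 5235.

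Aminoacyl-tRNA synthetases, which charge tRNAs and are known targets of ATF4, also differed mostly on one background. With XBP1 intact 9 of 19 passed 1.5-fold upward (background 21.2%) and 1 downward (background 19.3%), with a median of 0.58. Without XBP1 0 of 19 passed 1.5-fold upward (background 16.6%) or downward (background 16.9%) and the median was -0.04. Wild type was the lowest array for 14 of the 19, beside 32.6% of all genes. Aars, the alanyl enzyme, had 2425 and 2471 in the mutant arrays, against 1440 in wild type and 2128 in XBP1 null.

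**Figure D5:**
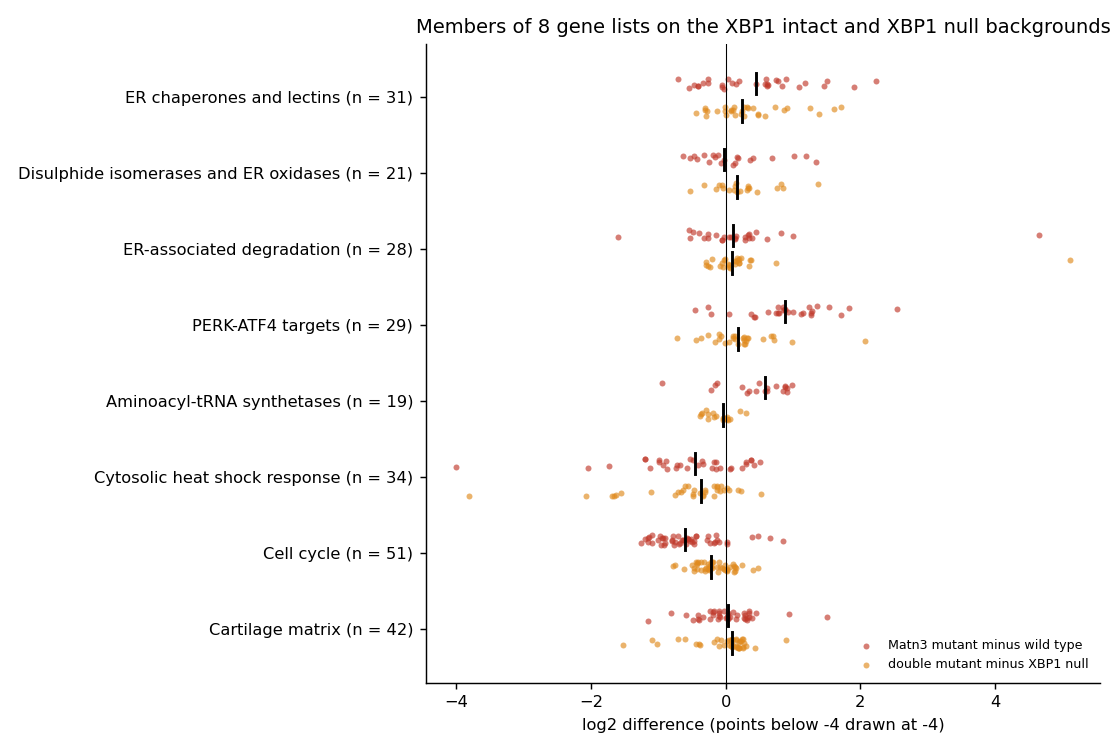
Log2 differences of the members of 8 gene lists, Matn3 mutant minus wild type (upper row of each list) and double mutant minus XBP1 null (lower row), with 1 point per gene and a bar at the median. The medians of PERK-ATF4 targets (0.88 and 0.18) and aminoacyl-tRNA synthetases (0.58 and -0.04) differ between the rows, and those of cytosolic heat shock genes (-0.45 and -0.37) lie below 0 on both.

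Cytosolic heat shock genes, whose products fold proteins outside the ER, leaned to the lower side on both backgrounds. Of 34 measured, 7 were over 1.5-fold lower on both (Hspa1l, Hspa4l, Fkbp4, Cacybp, Dnaja1, Dnaja4 and Cryab; background 5.47%), 0 were higher on both, and the median mean difference was -0.49. Both mutant arrays lay below both unmutated arrays for 20 of the 34 (background 21.8%) and above them for 1, Hspb2. The double mutant was the lowest array for 17 of the 34, beside 11.3% of all genes, and wild type the highest for 21, beside 22.1% of all genes.

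Dnaja4, a J protein cochaperone of cytosolic HSP70, had 1228 in the Matn3 mutant and 545 in the double mutant, against 5054 in wild type and 2306 in XBP1 null. Limma on the brighter probe sets called it lower (-2.06 ± 0.23, SE, adjusted p = 0.0403), and a second Dnaja4 probe set was called at -2.61 (adjusted p = 0.0403). Dnaja1, its relative, had 5091 and 3532, against 10067 and 7643. Cryab, a small heat shock protein, had 1289 and 667, against 2955 and 2060. Hspa4l, an HSP110 protein, had 64.6 and 44.7, against 215 and 131.

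The major cytosolic HSP70 and HSP90 genes gave unlike answers by probe set. The brightest Hspa8 probe set read 11457 and 12175 in the mutant arrays, against 14493 and 13303, a mean difference of -0.23, whereas another Hspa8 probe set read 2393 and 1181 against 10595 and 3999 and was called lower by limma on the brighter probe sets (-1.95 ± 0.19, SE, adjusted p = 0.0248). For Hsp90aa1 the brightest probe set had 13484 and 10885, against 15468 and 13706, and a second was called lower at -1.05 ± 0.13 (SE, adjusted p = 0.0489). Hspa1a, the inducible HSP70, had 12117 and 6692, against 13399 and 11324, so that its groups overlapped. Hspb1 was level, with 10866 and 12867 against 12274 and 13139.

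In mitochondria the chaperonin pair Hspd1 and Hspe1 was lower on both backgrounds. Hspd1, which encodes HSP60, had 6522 and 5118 in the Matn3 mutant and double mutant, against 10704 and 8413 in wild type and XBP1 null, a difference of -0.71 and -0.72. Hspe1, which encodes its partner HSP10, had 3652 and 2793, against 5503 and 4676. The genes are transcribed in opposite directions from a shared promoter, which holds a heat shock element, searched for as GAA, TTC and GAA in that order with 2 bases of any kind between each, on both strands. It matches here on each strand, and the overlapping matches are in capitals.
Hspe1, chr1:55088034-55088096 (+ strand), GRCm38.p6: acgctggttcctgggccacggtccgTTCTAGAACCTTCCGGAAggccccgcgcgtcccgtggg
The element was present in 198 of 32851 promoters (0.603%). Over the 88 measured genes with it the median mean difference was -0.01. Of these, 9 (10.2%, background 7.49%) were over 1.5-fold higher on both backgrounds and 6 (6.82%, background 5.47%) lower, so that as a set they were near the background of all genes. Among 21 chaperonins and mitochondrial chaperones, the 2 genes of this pair were the only ones over 1.5-fold lower on both backgrounds and 0 were higher, and the median was -0.08. The mitochondrial protease genes Lonp1, with 352 and 365 against 461 and 451, and Clpp, with 487 and 578 against 692 and 688, were lower by less.

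Cell cycle genes leaned to the lower side in the Matn3 mutant against wild type, with 27 of 51 over 1.5-fold lower (background 19.3%) and 2 higher. In the double mutant against XBP1 null 3 of 51 were over 1.5-fold lower (background 16.9%) and 0 higher, and the medians on the 2 backgrounds were -0.60 and -0.21. Both mutant arrays were below both unmutated arrays for 35 of the 51 (background 21.8%). Wild type was the highest array for 34 of the 51, beside 22.1% of all genes, and the Matn3 mutant the lowest for 38, beside 32.9% of all genes. Mcm5 and Mcm7, subunits of the helicase that opens DNA for replication, and Ccna2, the cyclin of S phase and G2, were lower on both backgrounds. Mcm5 had 553 and 687 in the mutant arrays, against 1080 and 1161, and Ccna2 had 324 and 412, against 775 and 711. Mki67, the proliferation antigen Ki-67, had 964 and 970, against 1668 and 1303.

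Nuf2, a kinetochore protein outside that list, was among the 15 lowest genes, with 218 and 122 against 626 and 394. H3c11, a histone gene also outside the lists and among the 15 lowest, had 105 and 69.4 in the Matn3 mutant and double mutant, against 530 in wild type and 203 in XBP1 null. Of 31 listed histone genes 6 were measured, of which 3 (H3c4, H3c7 and H1f4) were over 1.5-fold lower on both backgrounds (background 5.47%) and 0 higher. Copies of histone genes are nearly identical, and a probe set may read several of them.

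Cartilage matrix genes were mostly level. Of 42 measured, 1 was over 1.5-fold higher on both backgrounds (background 7.49%) and 3 lower (background 5.47%). The median mean difference was 0.07 and became -0.03 after quantile normalization. Acan, the proteoglycan aggrecan, had 9275 and 10139 in the Matn3 mutant and double mutant, against 7475 and 8242 in wild type and XBP1 null. Comp, a partner of matrilin-3 in the matrix, had 17926 and 18237, against 14727 and 17102. Matn1, the matrilin that can pair with matrilin-3 in mixed oligomers, was lower, with 1494 and 1533 against 2622 and 2334. Otor, a small protein secreted by cartilage, had 990 and 1220, against 2198 and 2476, and Vcan, the proteoglycan versican, was the third gene lower on both backgrounds, with 166 and 260 against 250 and 749 and overlapping groups. The one higher gene, Chst3, was at or below 9.74 on every array.

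Several genes of hypertrophic and mineralising cells were lower on both backgrounds. Col10a1, the collagen of hypertrophic cartilage, had 250 and 223 in the Matn3 mutant and double mutant, against 831 in wild type and 1370 in XBP1 null. Its differences were -1.73 and -2.62, and limma on the brighter probe sets gave an adjusted p of 0.0963. Alpl, the phosphatase of mineralising cells, had 77.5 and 98.8, against 172 and 304. Ibsp, bone sialoprotein, had 7.46 and 41.5, against 75.8 and 140.2. Mef2c, a transcription factor of hypertrophy, had 210.1 and 232, against 512 and 480.3, and Dlx5, another, had 71.5 and 84.9, against 148 and 159. In all, 5 of 48 genes of hypertrophy and growth plate signalling were over 1.5-fold lower on both backgrounds (background 5.47%), 1 (Ihh) was higher (background 7.49%) and 6 went opposite ways (background 6.75%), with a median of -0.12. Of the 7 measured hypertrophic matrix genes in that list, 3 were lower on both and 3 (Panx3, Ank and Sost) went opposite ways. Panx3 had 839 and 1355, against 1628 and 857.

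Some markers of bone and perichondrium were lower beside these genes. Of 8 measured osteoblast markers 3 were over 1.5-fold lower on both backgrounds (background 5.47%) and 0 higher (background 7.49%). Alpl and Ibsp, already described above, were 2 of these 3. The other, Dmp1, had 18.1 and 11.1 in the mutant arrays, against 29.3 in wild type and 163 in XBP1 null. Phex went opposite ways, and Col1a2 was higher on both backgrounds by less than 1.5-fold. The 8 markers had sums of 17151 and 21100 in the mutant arrays and 17185 and 22555 in the unmutated arrays. Of 15 perichondrial and fibroblast markers 3 were lower on both (Col5a2, Thy1 and Twist1), beside the same background, and 0 higher, with sums of 57572 and 74327 against 60022 and 86760. Thy1 had 41.3 and 113, against 169 and 368. Tnn, tenascin-W, a matrix protein of perichondrium and periosteum, had 51.0 in the Matn3 mutant and 100.2 in the double mutant, against 320 in wild type and 643 in XBP1 null, and was called lower by limma on the brighter probe sets (-2.66 ± 0.31, SE, adjusted p = 0.0422). The part that the share of such cells in each pool had in these values was not tested. Other marker lists had fewer bright members, and their counts stand beside 7.49% of all genes higher on both backgrounds and 5.47% lower. Skeletal muscle markers (15) numbered 4 lower and 2 higher on both backgrounds with a median of -0.75, erythroid markers (4) 2 lower with a median of -0.78, and leukocyte (15), osteoclast (8) and adipocyte (7) markers 1 higher each, with 1 lower among leukocyte markers and medians of 0.00, -0.01 and -0.40.

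Pnpla3, a lipid droplet protein with acylhydrolase activity, had 1149 and 769 in the mutant arrays, against 142 and 144 in wild type and XBP1 null. It was called higher by limma on the brighter probe sets (2.72 ± 0.31, SE, adjusted p = 0.0422). It stood alone among 30 genes of cholesterol and fatty acid synthesis (median 0.00). Of these, 1 was over 1.5-fold higher on both backgrounds (background 7.49%) and 0 lower (background 5.47%). Serpina3n, a secreted protease inhibitor, had 3257 and 4794, against 1503 and 821. Steap4, a metalloreductase, had 770 and 819, against 227 and 409. Col25a1, a membrane collagen, had 469 and 721, against 228 and 329. Zswim4, with 490.3 and 584 against 203 and 260.3, was among the 15 highest genes too, as were Tcl1b3, Krtcap3, Cdsn and the transcripts 4930447F24Rik and 1810014B01Rik. Krtcap3 was under the median signal of genes (112) in wild type and XBP1 null, with 87.7 and 91.7, and entered that ranking only through the mutant arrays. For 1810014B01Rik the probe sets disagreed, and the median over them gave -0.33 in place of 1.87.

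On the lower side the most extreme gene was Lce1d, a protein of the cornified layer of skin, with 24.95 in the Matn3 mutant and 10.97 in the double mutant, against 1094 in wild type and 962 in XBP1 null. Its mean log2 difference was -5.95. Both mutant signals were under the median signal that decided which probe sets were fitted as the brighter ones, and limma on all probe sets gave an adjusted p of 0.635. Sprr1a, another cornified envelope protein, had 701 and 685, against 2575 and 2216. Of the 6 epidermal markers not taken from earlier results of these data, 0 were over 1.5-fold lower on both backgrounds, 0 higher, and 2 (Krt14 and Trp63) went opposite ways. The basal keratins had overlapping groups, Krt14 with 34.1 and 7.88, against 12.4 and 87.9, and Krt5 with 62.3 and 84.8, against 65.1 and 33.1. Krt10, a keratin of the upper layers, was below in both mutant arrays, with 268 and 308 against 463 and 362. The part that skin in the dissected tissue had in these values was not tested. Rarres1, a retinoic acid-responsive membrane protein, had 61.4 and 45.9, against 354 and 307, and was called lower by limma on the brighter probe sets (-2.63 ± 0.33, SE, adjusted p = 0.0489). For Adi1, an enzyme of methionine salvage, a probe set that is not its brightest gave -3.89, and 1 further called probe set in each direction named no single gene.

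Of the remaining genes among the 15 lowest, Irs2, a docking protein of the insulin and IGF receptors, had 90.8 and 68.0 in the mutant arrays, against 430 and 221. Ccl2, a chemokine for monocytes, had 604 and 599, against 1441 and 1858. Dubr, a long noncoding RNA, had 67.4 and 66.5, against 231 and 236. Exosc9, a subunit of the RNA exosome, had 153 and 147, against 442 and 735, and Exoc1 and Fbxl7 completed the group. Both mutant arrays were below both unmutated arrays for each of these genes, but they were ranked by these same differences, so this is not a separate result. The ranking took genes whose mean log2 signal over the 4 arrays reached the median signal of genes (112). Irs2, Dubr, Exoc1, H3c11, Rarres1 and Lce1d were under 112 on both mutant arrays. They entered the ranking only through their unmutated arrays.

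Lists of other pathways held few genes over 1.5-fold the same way on both backgrounds. Their counts stand beside 7.49% of all genes higher on both, 5.47% lower and 6.75% opposite. Inflammatory and NF-kB targets held 10 of 35 genes with opposite differences of over 1.5-fold each (background 6.75%), with 3 higher on both backgrounds (Il1b, Nfkb2 and Icam1) and 2 lower (Ccl2 and Ccl7). Icam1, an adhesion molecule, had 3128 and 3792, against 2059 and 2156. Glycolysis and hypoxia genes numbered 1 higher on both (Vegfa), 2 lower (Adm and Ankrd37) and 2 opposite among 28. Vegfa, the growth factor of vessels that chondrocytes secrete, had 2295 and 2636, against 1088 and 1579. For proteasome subunits 0 of 31 passed 1.5-fold on both backgrounds and the median was -0.15. By sign alone 18 of the 31 were negative on both backgrounds and 0 positive, beside 4821 and 4699 of all 18193 genes, and the Matn3 mutant was the lowest array for 24, beside 32.9% of all genes. For cytosolic ribosomal proteins 0 of 23 passed 1.5-fold on both backgrounds, 20 were positive on both and 3 negative, and both mutant arrays lay above both unmutated arrays for 12 (background 20.2%). Their median was 0.18, and 0.02 after quantile normalization. For autophagy genes 0 of 31 passed 1.5-fold on both backgrounds (median 0.07), and for immediate early genes 0 of 26 (median 0.00). NRF2 targets and metallothioneins had 1 of 12 lower (Gsta4, median -0.11), and apoptosis and p53 targets 1 of 26 lower (Bik, median 0.01).

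Genes near Matn3 were counted because a knock-in allele brings linked sequence with it. Within 10 Mb of Matn3, in the order of RefSeq genes, 68 other genes were measured, of which 5 (7.35%) were over 1.5-fold higher on both backgrounds, 3 (4.41%) lower and 8 (11.8%) opposite, beside 7.49%, 5.47% and 6.75% of all genes. The median mean difference was -0.02.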

How the data were processed

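RNA of rib chondrocytes was hybridised by the authors to 4 Affymetrix Mouse430_2 arrays, 1 per genotype. The values deposited by the authors are linear signal intensities, 1 per probe set. The summary of probes and its scaling are both not given in the sources used here. Named there are Microarray Suite 5 for control hybridisations and a probe-level error model (PPLR), which could not be run on summarised signals. Background correction and scaling therefore follow the deposited values, and dim signals are the least certain.

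From these, values under 1 were set to 1, log2 was taken, and each mutant array was set against the unmutated array with the same Xbp1 genotype, a pairing that comes from the titles. Probe sets with 1 gene (34945 of 45037, with 932 naming several and 9160 none) were named from the platform annotation, with symbols updated by gene ID to RefSeq (GRCm38.p6), and the brightest stood for the gene. Limma 3.58.1 (R 4.3.3) fitted Xbp1 and Matn3 genotype, with moderated variances following the mean signal and Benjamini-Hochberg adjustment over all probe sets, and again over those at or above the median signal. The fit was tested on simulated data. Other steps used Python 3.11.15, pandas 2.3.3 and numpy 2.4.6, and figures matplotlib 3.10.9. Promoter sequences are RefSeq's.

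The 22 pathway lists, 11 marker lists and the rule for named genes were chosen with earlier results of these data known; the epidermal markers Lce1d, Klk8 and Krt13 came from those results. Named were Matn3, Xbp1, genes called by limma, the 15 highest and 15 lowest genes at or above the median signal by the smaller of the 2 differences, up to 6 members per list, members with opposite differences and the first member of each role. Other members given with their values were taken from the lists after their values were seen. Alternatives were array centring, quantile normalization, a higher floor, bright probe sets alone, other choices of probe set, a 2-fold threshold, no variance trend, no Xbp1 term and leaving out each array.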

Additional observations from a re-analysis of the deposited data

Results flagged for a closer look

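The results here went one way with XBP1 intact and the other way without XBP1, by over 1.5-fold each, and with 1 array per genotype none of these differences between the backgrounds was tested. They numbered 1228 of 18193 genes (6.75%). For each gene below the value is the log2 difference of Matn3 mutant minus wild type, less that of double mutant minus XBP1 null.

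Endothelial markers held the largest share of such genes among the lists, 9 of 13. Their median difference was 2.32 in the Matn3 mutant against wild type and -2.20 in the double mutant against XBP1 null, wild type was the lowest array for 12 of the 13 markers and XBP1 null the highest for 12. The values were 7.17 for the adhesion molecule Selp, 5.72 for Emcn, 5.71 for Vwf, 5.58 for the junction cadherin Cdh5, 5.35 for Aplnr, 4.91 for Cd34, 4.34 for the angiopoietin receptor Tek, 3.97 for Esam and 3.31 for the VEGF receptor Kdr. Cdh5, for example, had 146 in the Matn3 mutant against 11.5 in wild type, and 221 in the double mutant against 838 in XBP1 null.

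Inflammatory genes were the most numerous group, with 10 of 35. Their values were 5.07 for Cxcl5, 2.85 for Csf2, 2.55 for Il11, 2.31 for Mmp10, 2.30 for Cxcl12, 2.18 for Ccl5, 2.08 for Mmp3 and 1.38 for Il33, and with the opposite sign -2.43 for Cxcl10 and -2.37 for Tnf. Genes of growth plate signalling and mineralisation gave 4.46 for Sost, 2.03 for Ank, 2.02 for Igfbp2, 1.53 for Bmp6, -1.62 for Panx3 and -5.27 for Nog, whose signals were at most 22.5. Markers of other cells gave 5.51, 3.52 and 1.83 for the osteoclast genes Ocstamp, Atp6v0d2 and Oscar, 5.86, 4.94 and 2.34 for the epidermal genes Krt13, Krt14 and Trp63, 2.82 for Dpt, 2.69 for Fabp4, 2.10 for Phex and 1.98 for Cd14. The metabolic and stress genes Cth, Ndrg1, Pfkl and Perp gave 1.73, 1.54, -1.64 and 1.89. Y-linked Uty gave -7.68, with 0.904 in the Matn3 mutant against 135 in wild type and 356 in the double mutant against 233 in XBP1 null.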

How the results depend on the processing

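Limits come first from the design. Each genotype was 1 pool on 1 array, so leaving out an array leaves 1 background, given as the 2 differences of each gene. Under array centring, quantile normalization, the higher floor, no variance trend, no Xbp1 term (no replicate block) and the brightest probe sets fitted alone, limma still called 0 genes. On probe sets at or above the median signal it called 3 genes higher and 4 lower, with Derl3 and Lce1d in that fit only through the arrays where they are bright. That fit had fewer tests, but its unadjusted p also differed. For Hsp90b1 limma gave an unadjusted p of 0.0177 over all probe sets and 1.94e-05 there. The variance shared across probe sets counted there for 7.53 degrees of freedom, beside 1 residual. Without the Xbp1 term and leaving out each array, calls ranged from 0 to 1 higher and from 0 to 257 lower; 257 came without wild type and 127 without XBP1 null, and 89.8% and 91.5% of the probe sets called then were at the floor on both mutant arrays. The count lower on both backgrounds was 637 with the floor at the 25th percentile (5.52). With probe sets at or above the median signal alone the counts were 225 higher and 296 lower and the correlation 0.035. At 2-fold they were 688 and 459. The mean difference of 1810014B01Rik was -0.33 as a median over probe sets, the only change of sign under any alternative among named genes over 1.5-fold the same way on both backgrounds. Of 1837 values for 263 named genes 1695 moved by less than the spread between the backgrounds and 141 by more, as did 39 of 231 list medians; the median of the cartilage list was -0.03 and that of ribosomal proteins 0.02 after quantile normalization. The cause was not tested.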

Other observations

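Some genes already counted in the lists above, but not given there with their values, were apart between the mutant and unmutated arrays at low signals. Alas2, the heme synthesis enzyme of red cell precursors, had 0.955 and 5.76 in the Matn3 mutant and double mutant, against 83.1 and 169 in wild type and XBP1 null. Hspa1l, an HSP70 known from testis, had 2.29 and 0.697, against 134 and 14.0. The macrophage receptor Adgre1 had 81.6 and 102.6, against 20.2 and 35.9, whereas the myeloid integrin Itgam had 5.85 and 5.06, against 23.2 and 21.2, so that the 2 leukocyte markers over 1.5-fold the same way on both backgrounds had opposite directions. Ihh, the hedgehog ligand of prehypertrophic chondrocytes, had 32.8 and 30.0, against 17.1 and 7.23, while Ptch1, its receptor and a target of the same pathway, was brighter and had overlapping groups, with 1005 and 1497 against 986 and 1046. Retn, known as an adipokine, had 11.2 and 19.0, against 2.27 and 5.29.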
